A study of Mus musculus with 15 samples.

Results

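The 9 genes Nes, Vim, Fabp7, Prom1, Hopx, Msi1, Nr2e1, Tnc and Ptn are markers and regulators of radial glia and neural stem cells, chosen by name from the 24421 genes of the deposited tables. The choice was made with earlier results of these data known. All 9 were found and all 9 passed the filter on low values in every comparison. They were read in mouse brain tumours of 2 models, high-grade glioma (HGG, a fast-growing glial tumour) and ependymoma (EPN, a tumour that resembles ependymal cells, the lining of the ventricles). The 15 libraries of stranded poly(A) RNA form 5 groups of 3: HGG control, HGG Sox9-LOF (loss of function of the transcription factor Sox9), HGG Sox9-GOF (gain of function), EPN control and EPN Sox9-GOF. All are bulk brain tumour tissue, and the labels name no age, strain, tumour driver or method of changing Sox9, nor whether animals were pooled or whether replicates came from separate animals. The p-values therefore measure the spread between these samples, which may be technical. The series concerns how the role of Sox9 diverges between the tumour types, so the genes were compared between the models and with the Sox9 label.

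Radial glia are the stem cells of the developing brain, with a cell body at the ventricle and a long fibre to the outer surface along which newborn neurons migrate. They hold intermediate filaments of nestin (Nes) and vimentin (Vim), the fatty acid binding protein BLBP (Fabp7) and, on the membrane facing the ventricle, prominin 1 (Prom1, CD133). Outer radial glia, which have left the ventricle, carry Hopx, Tnc and Ptn. The same genes are common in gliomas and ependymomas, and Prom1 and Nes are widely used as markers of stem-like tumour cells.

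Promoters are shown for 4 members, Fabp7 and Hopx as the pair that passed the test between the models, Nes as the gene with the smallest adjusted p among those with a higher mean in EPN, and Ptn as the ligand of the group. Each run holds the bases 250 to 51 before the start of transcription, 5′ to 3′ on the strand of the gene, from RefSeq on GRCm38.p6 (the build that is also called mm10), and overlaps no annotated exon. They lie at chr10:57784673-57784872 (plus strand, Fabp7), chr5:77115174-77115373 (minus strand, Hopx, promoter 2 of 2 in the table), chr3:87970843-87971042 (plus strand, Nes) and chr6:36810230-36810429 (minus strand, Ptn). Capitals mark matches to TGGGAA, the core letters bound by RBPJ, the DNA-binding partner of NOTCH receptors.
Fabp7: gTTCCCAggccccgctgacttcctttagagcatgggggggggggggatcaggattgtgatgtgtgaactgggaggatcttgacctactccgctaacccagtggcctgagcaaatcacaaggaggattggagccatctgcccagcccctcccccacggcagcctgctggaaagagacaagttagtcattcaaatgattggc
Hopx: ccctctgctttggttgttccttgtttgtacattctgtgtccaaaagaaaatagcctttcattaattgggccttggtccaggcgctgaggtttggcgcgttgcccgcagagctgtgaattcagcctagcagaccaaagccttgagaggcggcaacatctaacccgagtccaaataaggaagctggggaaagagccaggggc
Nes: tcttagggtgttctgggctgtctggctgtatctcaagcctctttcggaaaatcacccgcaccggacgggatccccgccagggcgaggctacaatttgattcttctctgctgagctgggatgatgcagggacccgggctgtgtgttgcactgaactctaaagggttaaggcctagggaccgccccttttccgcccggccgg
Ptn: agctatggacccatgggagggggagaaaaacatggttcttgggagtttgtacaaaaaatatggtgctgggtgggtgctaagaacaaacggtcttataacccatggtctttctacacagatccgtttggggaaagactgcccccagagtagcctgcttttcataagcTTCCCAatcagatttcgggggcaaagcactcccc

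RefSeq promoters were matched for 8 of the 9 members, 11 promoters in all, and Msi1 had no entry. On either strand of the 250 bases before the start, 6 of the 11 held TGGGAA, against 21.6% of all 32851 promoters of the same length. The matches stood 249 to 244 bases before the start of Fabp7, 150 to 145 before that of Nr2e1 and 84 to 79 before that of Ptn, and in 1 of the 2 Prom1 promoters and both Tnc promoters, which overlap each other. The letters ACAATG or ACAAAG, short forms of the site of SOX factors, were found in 0 of the 11, against 25.2% of all promoters. No match says only that these letters are not in this window.

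Depth ran from 4665428 to 14119140 reads per library with a median of 10578708. Values below are rescaled counts, reads divided by a size factor per library with the 15 libraries scaled together. Sox9 itself ran from 218 to 310 in the HGG controls, 395 to 739 under the label Sox9-LOF, 1275 to 1537 in HGG Sox9-GOF, 1040 to 1189 in the EPN controls and 1834 to 2692 in EPN Sox9-GOF. Under the label Sox9-LOF the Sox9 transcript was thus higher than in the HGG controls, short of the threshold (log2 difference 1.03, limma adjusted p = 0.184). The labels name no method, so whether function was lost cannot be told from the transcript. Those samples are called the libraries labelled Sox9-LOF. The HGG controls were the least alike of any group, with correlations over genes of 0.819 to 0.861 between libraries, against 0.930 to 0.965 within the other groups. Markers of the choroid plexus, the tissue that makes cerebrospinal fluid, summed to 109518 in HGG control 1, 24632 in library 3 labelled Sox9-LOF, 9834 in library 3 of HGG Sox9-GOF and 57 to 456 in the other 12 libraries. Of the 6 ependymal markers, including the cilia factor Foxj1, 3 passed the filter between the controls, and the 6 summed to only 135 to 201 in the EPN controls and 164 to 491 in the HGG controls.

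Levels per kilobase of exon set the order of the genes within a group. In the 3 HGG groups Fabp7 led, with means of 4551 ± 3555 per kb (SD, n = 3) in the controls, 5386 ± 1280 under the label Sox9-LOF and 5441 ± 2432 in Sox9-GOF. Vim came next at 2756, 2300 and 1530 per kb, and then Ptn at 1017, 938 and 895 per kb. In EPN the order was turned: Vim led at 4167 ± 250 per kb in the controls and 4626 ± 739 in Sox9-GOF, with Fabp7 second at 767 ± 123 and 574 ± 514. Msi1, Prom1 and Nr2e1 stayed the 3 lowest in every group, at 6.16 to 50.3 per kb.

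**Figure D1:**
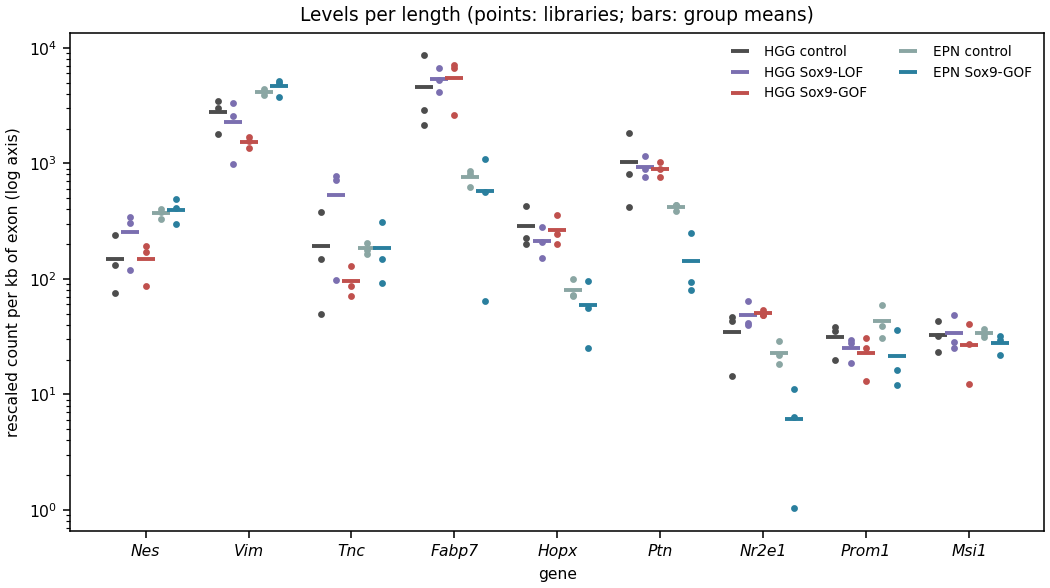
Levels of the 9 genes per kilobase of exon, on a log axis, by group. Points are libraries and bars are group means; Fabp7 is the highest gene in the HGG groups and Vim in the EPN groups.

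The filament genes come first. Nes (chr3:87971078-87980451, plus strand) was 1524, 851 and 480 in HGG controls 1, 2 and 3, 1951, 2204 and 759 under the label Sox9-LOF, and 1225, 1090 and 552 in HGG Sox9-GOF. In EPN it was 2099, 2455 and 2562 in the controls and 1914, 2611 and 3133 with Sox9-GOF. Library 3 was the lowest of each HGG group, and the 6 EPN values lay above all HGG values but those of libraries 1 and 2 labelled Sox9-LOF. Vim (chr2:13573927-13582826, plus strand), the most abundant filament gene here, was 16551, 14169 and 8500 in the HGG controls, 12226, 15820 and 4675 under the label Sox9-LOF, and 6446, 7340 and 7982 in HGG Sox9-GOF. In EPN it was 20193, 18422 and 20671 in the controls and 17950, 23350 and 24528 with Sox9-GOF. All 6 EPN libraries held more Vim than all 9 HGG libraries.

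Tnc (chr4:63959785-64047015, minus strand) encodes tenascin C, a large glycoprotein of the stem cell niche and of glioma matrix. It was 2940, 1144 and 387 in the HGG controls, 6039, 5622 and 756 under the label Sox9-LOF, and 551, 1000 and 673 in HGG Sox9-GOF. EPN values were 1393, 1601 and 1274 in the controls and 1160, 2411 and 720 with Sox9-GOF. The 2 highest of the 15 values were libraries 1 and 2 labelled Sox9-LOF, while library 3 of that group lay near the HGG Sox9-GOF values. Among 15109 genes, 98.7% had a smaller SD of log2 values in that group than Tnc.

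Fabp7 (chr10:57784881-57788450, plus strand), which binds long-chain fatty acids in radial glia, was 3590, 10794 and 2684 in the HGG controls, 8379, 5184 and 6636 under the label Sox9-LOF, and 8810, 8288 and 3304 in HGG Sox9-GOF. EPN values were 786, 1009 and 1081 in the controls and 709, 1365 and 80.7 with Sox9-GOF. Every EPN value lay below every HGG value. EPN Sox9-GOF 3, with 84 reads, was 16.9 times below the highest library of its group, and 99.0% of genes had a smaller SD in that group.

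Hopx and Nr2e1 act in the nucleus. Hopx (chr5:77086988-77115121, minus strand), a small homeodomain protein that marks outer radial glia and quiescent stem cells, was 301, 344 and 653 in the HGG controls, 230, 318 and 422 under the label Sox9-LOF, and 368, 301 and 542 in HGG Sox9-GOF. EPN libraries gave 109, 150 and 107 in the controls and 85.1, 144 and 38.4 with Sox9-GOF, all below the 9 HGG values. Nr2e1 (chr10:42561963-42583632, minus strand), the orphan nuclear receptor TLX that keeps neural stem cells undifferentiated, was 53.2, 172 and 160 in the HGG controls, 148, 154 and 239 under the label Sox9-LOF, and 180, 181 and 199 in HGG Sox9-GOF. EPN libraries gave 67.6, 81.1 and 107 in the controls and 23.8, 41.0 and 3.84 with Sox9-GOF, the last from 4 reads. The HGG Sox9-GOF libraries were close together for Nr2e1, with 7.0% of genes having a smaller SD, and the EPN Sox9-GOF libraries far apart, with 97.2%.

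Msi1 (chr5:115429599-115455698, plus strand), Musashi 1, binds RNA and blocks translation of the NOTCH inhibitor Numb. It ran from 134 to 248 in the HGG controls, 147 to 283 under the label Sox9-LOF, 71.1 to 236 in HGG Sox9-GOF, 184 to 212 in the EPN controls and 127 to 184 with Sox9-GOF. Prom1 (chr5:43993620-44102032, minus strand) was 142, 252 and 276 in the HGG controls, 133 to 212 under the label Sox9-LOF and 93.3 to 219 in HGG Sox9-GOF. The EPN levels were 429, 278 and 219 in the controls and 87.2, 258 and 116 with Sox9-GOF. Neither gene separated any pair of neighbouring groups in the order of their means.

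Ptn (chr6:36714929-36810220, minus strand) encodes pleiotrophin, a secreted growth factor that binds the receptor phosphatase PTPRZ1. It was 1435, 6249 and 2792 in the HGG controls, 2601, 3077 and 3983 under the label Sox9-LOF, and 3069, 3511 and 2634 in HGG Sox9-GOF. The EPN levels were 1492, 1330 and 1503 in the controls and 321, 862 and 277 with Sox9-GOF. Ptn stepped down in the order HGG Sox9-GOF, EPN control and EPN Sox9-GOF with no overlap between these neighbours, while the 3 HGG groups overlapped. Other neighbours in the order of group means that did not overlap were EPN control over HGG control for Vim, HGG control over EPN control for Fabp7, the libraries labelled Sox9-LOF over EPN control for Hopx, EPN control over EPN Sox9-GOF for Nr2e1 and EPN control over HGG Sox9-GOF for Tnc.

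**Figure D2:**
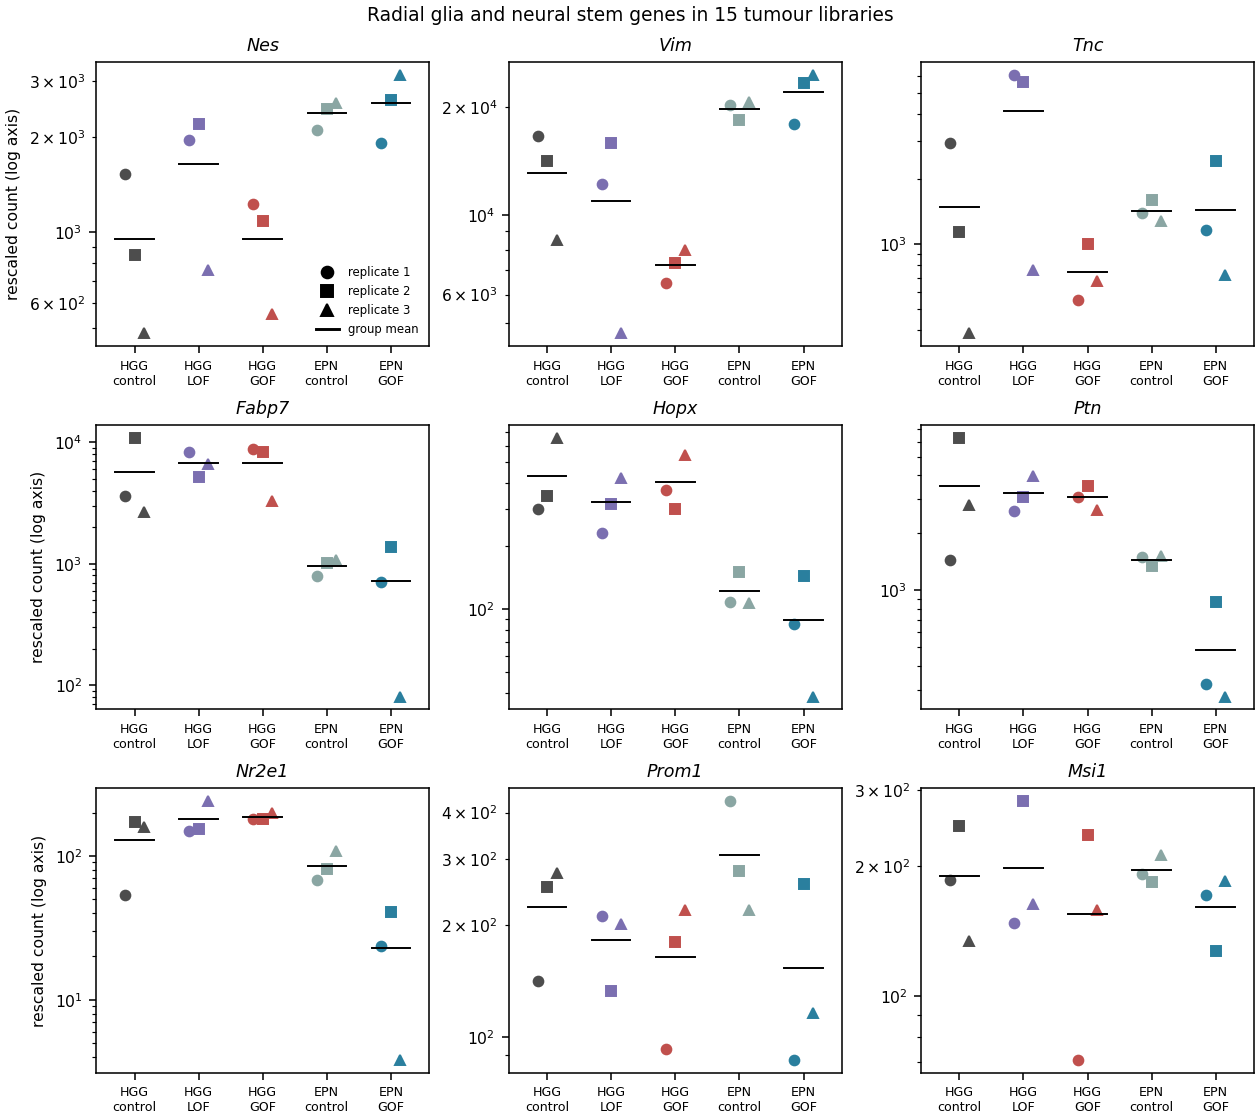
Rescaled counts of the 9 genes in each of the 15 libraries, on log axes, with replicates 1, 2 and 3 as circle, square and triangle and the group mean as a bar. Vim is higher, and Fabp7 and Hopx are lower, in all 6 EPN libraries than in all 9 HGG libraries, and Ptn and Nr2e1 are lowest in EPN Sox9-GOF.

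Across the models, EPN and HGG libraries did not overlap for 3 of the 9 genes. Vim was 17950 to 24528 in EPN against 4675 to 16551 in HGG, Fabp7 was 80.7 to 1365 against 2684 to 10794, and Hopx was 38.4 to 150 against 230 to 653. Of all genes, 17.5% separated the 6 EPN from the 9 HGG libraries in this way, 10.1% with EPN higher and 7.46% with EPN lower. This count mixes groups with different Sox9 labels and carries no test.

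Between the controls, 2 of the stem cell genes passed the test, both lower in EPN. Folds are on the scale of log2(value + 1), as in the test. Fabp7 fell 4.95-fold and Hopx 3.36-fold in EPN against HGG, while Nes was 2.77-fold and Vim 1.57-fold higher with no overlap but short of the threshold. The log2 difference was -2.31 for Fabp7 (SE 0.51, limma adjusted p = 0.0315, n = 3 against 3) and -1.75 for Hopx (SE 0.35, adjusted p = 0.0225). It was 1.47 for Nes (SE 0.41, adjusted p = 0.0572), 0.65 for Vim (adjusted p = 0.199) and -1.02 for Ptn (adjusted p = 0.207). The groups overlapped for Ptn, and also for Prom1, Msi1, Nr2e1 and Tnc, whose log2 differences were 0.47, 0.09, -0.44 and 0.37. The 2 calls of 9 compare with a background in which limma called 15.3% of the 15105 genes tested (9.51% higher and 5.83% lower, and 33.3% in all at an unadjusted p under 0.05). Groups did not overlap for 4 of 9, against 40.3% of all genes, and the median difference was 0.09 over the members and 0.00 over all genes.

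For a single gene, exact permutation of 3 and 3 libraries has a smallest two-sided p of 0.1. The same 2 members were called by edgeR (2261 genes called, 15% of 15105), and DESeq2 called Fabp7, Hopx and Nes (29.2% of genes, Nes adjusted p = 0.0186). With a spread shared by the 15 libraries, which called 27.6% of genes, Hopx and Nes passed and Fabp7 had an adjusted p of 0.0517 in limma. Both limma calls were lost when any 1 EPN control was left out, where 4.27%, 2.43% and 4.63% of genes were called: limma's adjusted p without EPN control 1, 2 or 3 was 0.115, 0.116 and 0.0939 for Fabp7 and 0.0921, 0.0749 and 0.0872 for Hopx. Without HGG control 1, the library with the high choroid plexus sum, 4 members passed limma (24.2% of genes), with Nes at 1.89 (adjusted p = 0.0109) and Ptn at -1.54 (adjusted p = 0.0307) joining Fabp7 and Hopx. In this bulk tissue, fewer cells of a type and less RNA per cell cannot be told apart. The summed markers of oligodendrocyte precursors were 5722 to 6164 in the EPN controls and 11120 to 49197 in the HGG controls, with 0 of 6 markers positive in log2 difference and none at 0. The summed markers of endothelial cells were 2575 to 3735 against 540 to 1336 and those of pericytes and smooth muscle 3630 to 4650 against 435 to 885, each with 6 of 6 markers positive in log2 difference and none at 0. Astrocyte markers summed to 35050 to 41279 against 9911 to 41871, and fibroblast and meningeal markers to 24391 to 34619 against 2833 to 25744. Neuron markers summed to 5195 to 11629 against 6428 to 39346 (8 of 8 negative in log2 difference). Microglia and macrophage markers summed to 12504 to 21974 against 4914 to 13769 (8 of 8 positive). Mature oligodendrocyte markers summed to 18248 to 36941 against 37917 to 126332 (5 of 6 negative). Markers of proliferating cells summed to 6281 to 9103 against 3276 to 10708 (6 of 6 positive). By limma, 4 of 6 pericyte and smooth muscle and 3 of 6 endothelial markers were higher, against 9.51% of all genes. So were 2 of 8 microglia and macrophage and 2 of 6 fibroblast and meningeal markers. Lower were 2 of 6 oligodendrocyte precursor and 1 of 8 neuron markers, against 5.83% of all genes. The part of all these markers in the differences of these genes was not tested.

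In EPN, Ptn and Nr2e1 had lower values with Sox9-GOF than in the controls, with no overlap, but did not pass the test. Ptn was 1441 ± 96.8 in the EPN controls and 486 ± 326 with Sox9-GOF, a log2 difference of -1.71 (SE 0.40, limma adjusted p = 0.160), or 3.28-fold. Nr2e1 was 85.4 ± 20.2 against 22.9 ± 18.6, a log2 difference of -2.26 (SE 0.77, limma adjusted p = 0.232), or 4.79-fold. Prom1 differed by -1.06 (SE 0.43, limma adjusted p = 0.315), with overlapping groups. Nes and Vim differed by 0.13 and 0.19. Fabp7 differed by -1.10, and by 0.10 without EPN Sox9-GOF 3. Without that library Nr2e1 differed by -1.35.

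In that comparison 0 of 9 members passed limma, which called 0.0% of 14591 genes, and 2 of 9 (Ptn and Nr2e1, both lower) had groups that did not overlap, against 22.0% of all genes and 12.5% lower. At an unadjusted p under 0.05, limma counted 15.1% of genes, Ptn, Nr2e1 and Prom1 among them. By DESeq2 only Ptn passed of the 9 (log2 -1.53, adjusted p = 0.0146), where it called 5.78% of genes, and edgeR called 0.0%. The median over the members was -0.58 with 7 of 9 negative, against 0.04 over all genes. Of the marker lists, 0 genes passed the test here. By log2 difference, astrocyte markers summed to 8270 to 27725 with Sox9-GOF and 35050 to 41279 in the controls (8 of 8 lower), neuron markers to 2020 to 3184 against 5195 to 11629 (8 of 8 lower), oligodendrocyte precursor markers to 3405 to 4432 against 5722 to 6164 (5 of 6 lower) and mature oligodendrocyte markers to 2509 to 25108 against 18248 to 36941 (6 of 6 lower). Endothelial markers summed to 1639 to 2703 against 2575 to 3735 (6 of 6 lower), pericyte and smooth muscle markers to 3031 to 3326 against 3630 to 4650 (6 of 6 lower) and microglia and macrophage markers to 9191 to 21399 against 12504 to 21974 (7 of 8 lower). Markers of proliferating cells summed to 7753 to 16256 against 6281 to 9103 (6 of 6 higher) and lymphocyte markers to 114 to 2091 against 212 to 1056 (6 of 7 tested higher). None of these markers was at 0 in all libraries of a group, and their part in the result was not tested.

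In HGG, Vim was lower and Nr2e1 higher with Sox9-GOF, with no overlap and short of the threshold. Vim was 13073 ± 4136 in the HGG controls and 7256 ± 772 with Sox9-GOF, a log2 difference of -0.78 (SE 0.34, limma adjusted p = 0.241), and all 3 Sox9-GOF libraries lay below all 3 controls. Nr2e1 was 128 ± 65.4 against 187 ± 10.8, a log2 difference of 0.73 (SE 0.48, limma adjusted p = 0.412), again with no overlap. Without HGG control 1, the library with the high choroid plexus sum, it was 0.19. The other 7 members overlapped, with log2 differences from -0.58 for Tnc to 0.43 for Fabp7. Of the 9, 0 passed limma, which called 0.0% of 15092 genes (22.7% at an unadjusted p under 0.05), edgeR called 0.0% and DESeq2 called 2260 of 15024 genes (15%) and 0 members. The 2 members with no overlap compare with 30.5% of all genes. Astrocyte markers summed to 26468 to 106001 with Sox9-GOF and 9911 to 41871 in the HGG controls, with 8 of 8 positive in log2 difference and overlapping sums. Also positive were 8 of 8 microglia and macrophage, 7 of 8 neuron and 6 of 6 proliferating cell markers. Negative were 5 of 6 mature oligodendrocyte, 4 of 6 oligodendrocyte precursor, 5 of 6 endothelial and 7 of 7 tested lymphocyte markers. The part of these markers was not tested.

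The libraries labelled Sox9-LOF differed from the same HGG controls most in Tnc and Nes, both with overlapping groups. Tnc was 4139 ± 2937 against 1490 ± 1311, a log2 difference of 1.43 (SE 1.02, limma adjusted p = 0.507), and Nes 1638 ± 772 against 952 ± 529, a difference of 0.79 (SE 0.56, limma adjusted p = 0.501). The Tnc difference was 2.42 without library 3 labelled Sox9-LOF and 0.68 without HGG control 3. The other 7 members differed by -0.39 to 0.62. Members called were 0 of 9 by limma, edgeR and DESeq2, which called 0.0%, 0.0% and 9.06% of genes, and 0 of 9 had groups without overlap, against 24.5% of all genes. At an unadjusted p under 0.05 limma counted 17.3% of genes and no member. Astrocyte markers summed to 63449 to 72003 under the label Sox9-LOF and 9911 to 41871 in the HGG controls, with 8 of 8 positive, a median log2 difference of 1.77 and no overlap of the sums. Neuron markers summed to 17690 to 38108 against 6428 to 39346, with 8 of 8 positive. Ependymal and proliferating cell markers were positive for 6 of 6 each (medians 0.93 and 0.36). Pericyte and smooth muscle (median 0.93) and choroid plexus markers (median 0.52) were positive for 5 of 6 each. Lymphocyte markers were negative for 7 of 7 tested (median -2.66) and oligodendrocyte precursor markers for 5 of 6 (median -0.73). Of these lists 0 markers passed limma and none was at 0 in all libraries of a group. Their part in the values of these genes was not tested.

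Set directly against the libraries labelled Sox9-LOF, the HGG Sox9-GOF libraries had a lower mean of Tnc, 741 ± 232 against 4139 ± 2937, a log2 difference of -2.04 (SE 0.74, limma adjusted p = 0.640). DESeq2 called Tnc here (-2.48, adjusted p = 0.0148), the only member it called, with 0.937% of genes called. The lowest library labelled Sox9-LOF, at 756, lay inside the Sox9-GOF range of 551 to 1000. By limma 0 of 9 members and 0.0% of 14873 genes passed (7.41% at an unadjusted p under 0.05, Tnc among them), by edgeR 0.0%, and 0 of 9 groups were without overlap against 13.6% of all genes. Without library 3 labelled Sox9-LOF the limma difference of Tnc was -3.02 (adjusted p = 0.141). The next largest difference was Nes at -0.72 (SE 0.46, limma adjusted p = 0.737). By log2 difference, 8 of 8 microglia and macrophage markers and 6 of 6 tested lymphocyte markers were higher with Sox9-GOF. Lower were 6 of 6 mature oligodendrocyte, 6 of 6 endothelial and 6 of 8 astrocyte markers. The part of these markers was not tested.

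Of the 9 genes, Nr2e1 had the largest difference of Sox9-GOF effects between the models, short of the threshold. In EPN minus in HGG, the effect was -2.99 for Nr2e1 (SE 0.99, limma adjusted p = 0.0868), and every Sox9-GOF library lay below the controls in EPN and above them in HGG. Taken singly, 12.5% of all genes were lower without overlap in EPN Sox9-GOF and 15.3% higher in HGG Sox9-GOF. The share with both was not counted. Without EPN Sox9-GOF 3 the difference for Nr2e1 was -2.08 (limma adjusted p = 0.105). The difference was -1.80 for Ptn (SE 0.72, limma adjusted p = 0.138), 0.96 for Vim (SE 0.37, adjusted p = 0.128) and -1.53 for Fabp7 (SE 1.26, adjusted p = 0.470). For the other 5 members it ran from -0.61 to 0.46. By limma 0 of 9 members passed (6.07% of 15145 genes did, and 27.1% at an unadjusted p under 0.05, Nr2e1, Ptn and Vim among them), and by edgeR 0 of 9 (5.37%). DESeq2, which called 16.4% of genes, called Nr2e1 (-2.42, adjusted p = 0.0423) and Vim (1.01, adjusted p = 0.0308). Without HGG control 3, limma called Vim (1.25, adjusted p = 0.0289), with 13.9% of genes called. This contrast uses the controls and Sox9-GOF libraries of both preceding comparisons and is no separate evidence for them. Of the marker lists, 8 of 8 astrocyte (median -2.64) and 8 of 8 neuron markers (median -2.72) were negative in it. So were 6 of 6 pericyte and smooth muscle (median -1.40) and 7 of 8 microglia and macrophage markers (median -1.18). Mature oligodendrocyte (median -1.11) and oligodendrocyte precursor markers (median -0.70) were negative for 5 of 6 each. Lymphocyte markers were positive for 7 of 7 tested (median 3.22) and choroid plexus markers for 4 of 6 (median 0.51). The part of these markers was not tested.

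**Figure D3:**
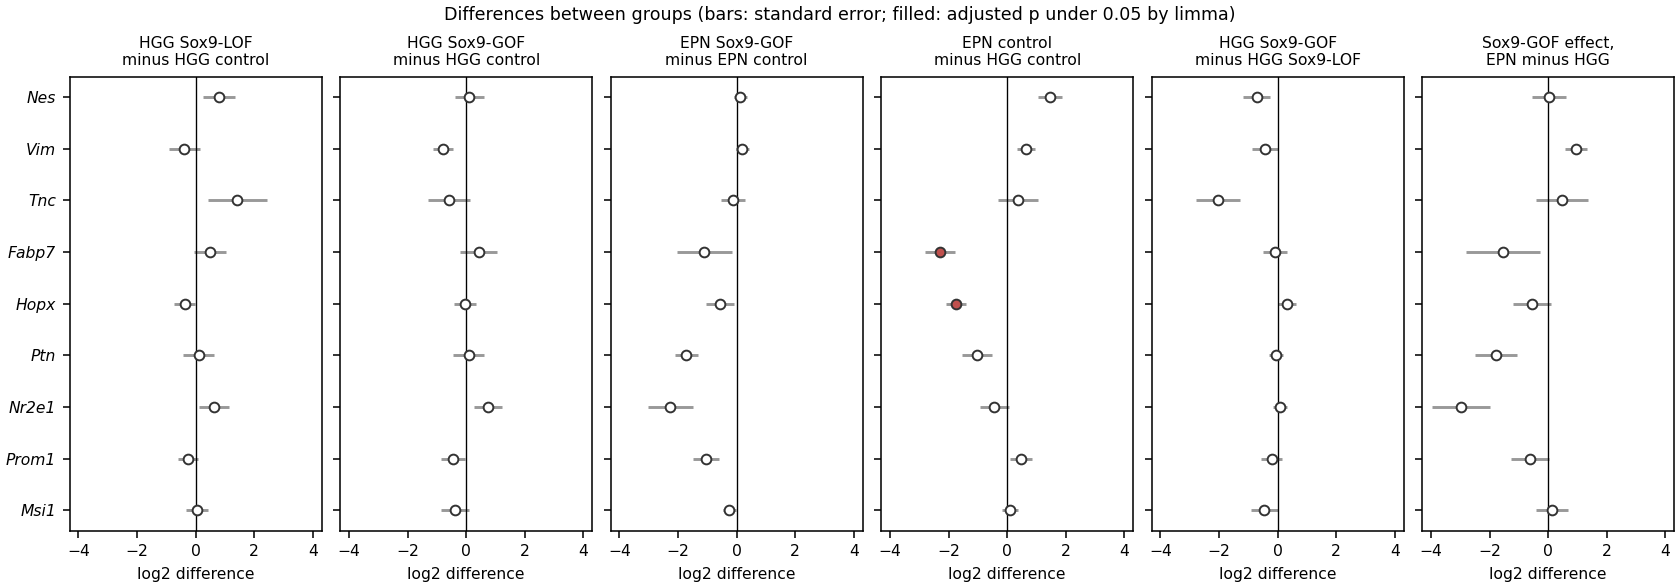
Log2 difference of each gene in the 6 comparisons, with the standard error as a bar. Filled points have a limma adjusted p under 0.05: Fabp7 at -2.31 and Hopx at -1.75 between the EPN and HGG controls, with all other points open.

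Genes that encode binding partners and relatives of pleiotrophin and tenascin were read beside the members. Between the controls, 7 of 19 tested partner genes were higher in EPN and 3 lower by limma, against 9.51% and 5.83% of all genes. This list and those below were chosen with earlier results of these data known. Their shares are therefore a description and no evidence of enrichment. Those named by smallest adjusted p were the proteoglycan Sdc4 (2.29, adjusted p = 0.00511), the pleiotrophin homologue midkine Mdk (3.12, adjusted p = 0.00645) and the axonal adhesion molecule Cntn1 (-1.92, adjusted p = 0.00828). The other 2 lower genes were the receptor Ptprz1 (-1.90, adjusted p = 0.00900) and Sdc3 (-1.46, adjusted p = 0.0213), a proteoglycan that binds pleiotrophin. The list's median was 0.09, against 0.00 over all genes.

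Midkine, which shares receptors with pleiotrophin, separated the models. Mdk was 1117, 730 and 383 in the HGG controls, 398, 195 and 286 under the label Sox9-LOF, and 161, 186 and 285 in HGG Sox9-GOF. The EPN controls held 5670, 6550 and 5593, and EPN Sox9-GOF held 10053, 7558 and 7456. Every EPN value was above every HGG value. The ratio of Mdk to Ptn counts was 0.0526 to 0.779 in the 9 HGG libraries, 3.72 to 4.93 in the EPN controls and 8.77 to 31.3 in EPN Sox9-GOF. The receptor Ptprz1 was 3498 to 6462 in the HGG controls, 7029 to 10004 under the label Sox9-LOF, 6905 to 14786 in HGG Sox9-GOF, 1240 to 1544 in the EPN controls and 231 to 576 in EPN Sox9-GOF.

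The Sox9-GOF effect itself differed between the models for 4 of 19 partners by limma, against 6.07% of all genes. In EPN minus in HGG it was lower for Cntn1 (-3.22, SE 0.51, limma adjusted p = 0.0178), Ptprz1 (-2.90, SE 0.52, adjusted p = 0.0197) and Tnr (-4.39, SE 0.76, adjusted p = 0.0197), the tenascin of perineuronal nets, and higher for Mdk (2.23, SE 0.48, adjusted p = 0.0289; chosen after its value was seen). Within EPN these were -1.73, -1.81 and -2.31 for Cntn1, Ptprz1 and Tnr (adjusted p = 0.133 for each), and within HGG Cntn1 was 1.49 (adjusted p = 0.102), Ptprz1 1.09 (adjusted p = 0.181) and Mdk -1.70 (adjusted p = 0.0903). No gene of the list passed limma within either model, where it called 0.0% of all genes. The part of the astrocyte, neuron, pericyte, mature oligodendrocyte and oligodendrocyte precursor markers, whose shifts in the difference of effects are given above, was not tested. Correcting for GC content removed the calls of Cntn1, Ptprz1 and Mdk. Without EPN control 3 all 4 were lost, and without EPN control 2 all but Cntn1. Mdk was the least steady, with its call lost in 9 of the 12 fits that leave out 1 library: those without HGG control 2, any HGG Sox9-GOF library, any EPN control, or EPN Sox9-GOF 1 or 3.

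**Figure D4:**
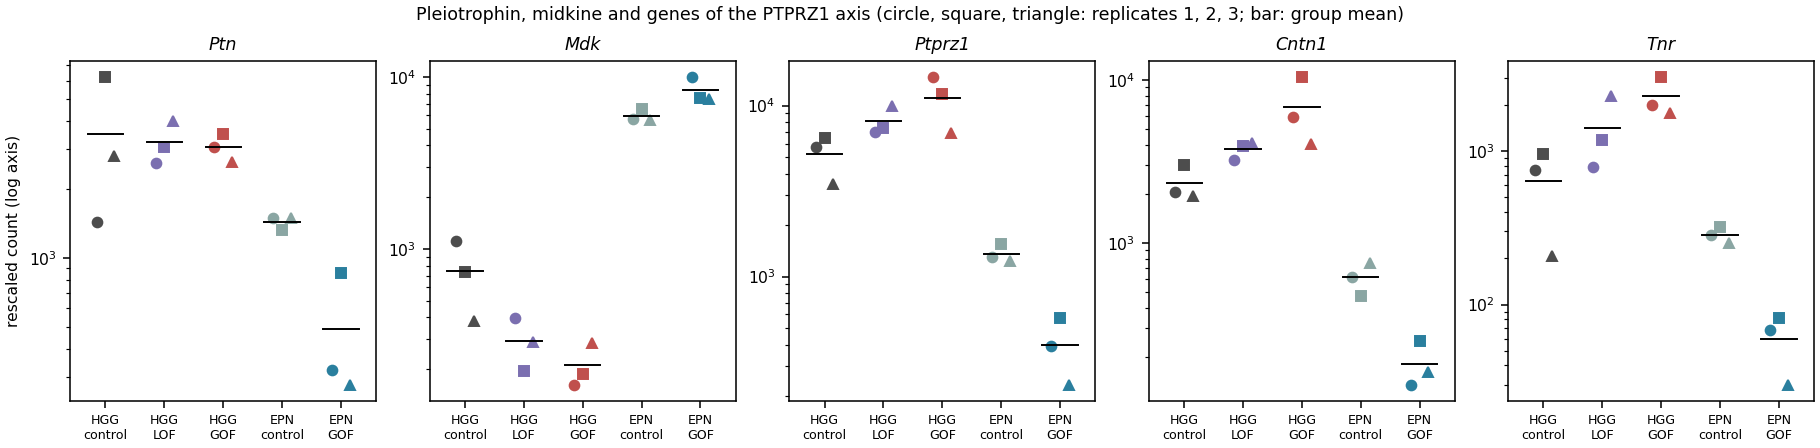
Rescaled counts of Ptn, Mdk, Ptprz1, Cntn1 and Tnr in the 15 libraries, on log axes, with replicates 1, 2 and 3 as circle, square and triangle and the group mean as a bar. Mdk is highest in EPN Sox9-GOF (7456 to 10053), where Ptn (277 to 862) and Ptprz1 (231 to 576) are lowest.

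Other radial glia and neural stem genes were a mixed set between the models. Between the controls 6 of 30 were higher in EPN and 4 lower by limma, against 9.51% and 5.83% of all genes, with a median of 0.15. Those with the smallest adjusted p were Gli3, a mediator of hedgehog signalling (3.76, adjusted p = 0.00371), the transcription factor Tfap2c (6.48, adjusted p = 0.00608) and Sfrp1, a secreted WNT modulator (2.45, adjusted p = 0.00639). Tfap2c ran from 0 to 2.20 in the 9 HGG libraries and from 49.0 to 442 in the 6 EPN libraries. Lower genes, named after their values were seen, included the NOTCH effector Hes5 (-3.09, adjusted p = 0.0147), Mfge8 (-1.54, adjusted p = 0.0170) and Sox21 (-1.75, adjusted p = 0.0427).

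The Sox9-GOF effect differed between the models for 2 of these 30 genes by limma, both lower in EPN minus HGG, a share near the 6.07% of all genes. They were Ddah1, an enzyme that breaks down an inhibitor of nitric oxide synthesis (-2.37, SE 0.39, limma adjusted p = 0.0197), and the transcription factor Dach1 (-3.06, SE 0.72, adjusted p = 0.0377). The median of the list was -0.71, with 22 of 30 negative, against -0.03 over all genes. Without EPN control 2 or EPN control 3 both calls were lost. Dach1 was lost in 9 of the 12 fits that leave out 1 library (also without HGG control 2, any HGG Sox9-GOF library, EPN control 1, or EPN Sox9-GOF 2 or 3), with the GC correction and with no filter.

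Of 12 outer radial glia genes, the integrin subunit Itgb5 (1.94, adjusted p = 0.00860), the LIF receptor Lifr (2.09, adjusted p = 0.0107) and its partner Il6st (0.97, adjusted p = 0.0443) were higher in the EPN controls by limma, and Ptprz1 and Sdc3 were lower as above. The list had 7 of 12 positive and a median of 0.35, and its 3 higher and 2 lower calls compare with 9.51% and 5.83% of all genes. In the Sox9-GOF effect only Ptprz1 of the 12 differed between the models by limma, against 6.07% of all genes. It is the same gene already counted among the partners above. Of 15 intermediate filament and linker genes, 0 passed limma in either contrast; the nearest was Fabp5, a relative of Fabp7, at -1.38 between the controls (SE 0.39, limma adjusted p = 0.0582). Fabp5 ran from 2098 to 6171 in the HGG controls and from 1221 to 1509 in the EPN controls.

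Of 15 partners of Nr2e1, Msi1 and Hopx, 3 were higher in the EPN controls and 1 lower by limma, against 9.51% and 5.83% of all genes. Msi2, the paralogue of Msi1, differed by 1.27 (adjusted p = 0.0210), Smad4, a BMP effector, by 0.91 (adjusted p = 0.0422), Gata6 by 4.63 (adjusted p = 0.0486; named after its value was seen) and Hdac5, a deacetylase recruited by Nr2e1, by -1.05 (adjusted p = 0.0208). Msi2 is also counted among the higher genes of the other radial glia and neural stem genes. Msi1 itself differed by 0.09 (SE 0.28, limma adjusted p = 0.850). Of the 26 genes of these lists called between the controls, 8 to 14 were still called without 1 EPN control. In the 3 comparisons with controls inside a model, and between the 2 Sox9 labels in HGG, limma called 0.0% of all genes. The 0 genes of the 5 lists that passed there follow from this. The smallest adjusted p there were 0.133 for Cntn1, Ptprz1 and Tnr in EPN Sox9-GOF, 0.0696 for Atn1, a corepressor of Nr2e1 (-1.15), in HGG Sox9-GOF, and 0.143 for Sfrp1 (-1.69) under the label Sox9-LOF.

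**Figure D5:**
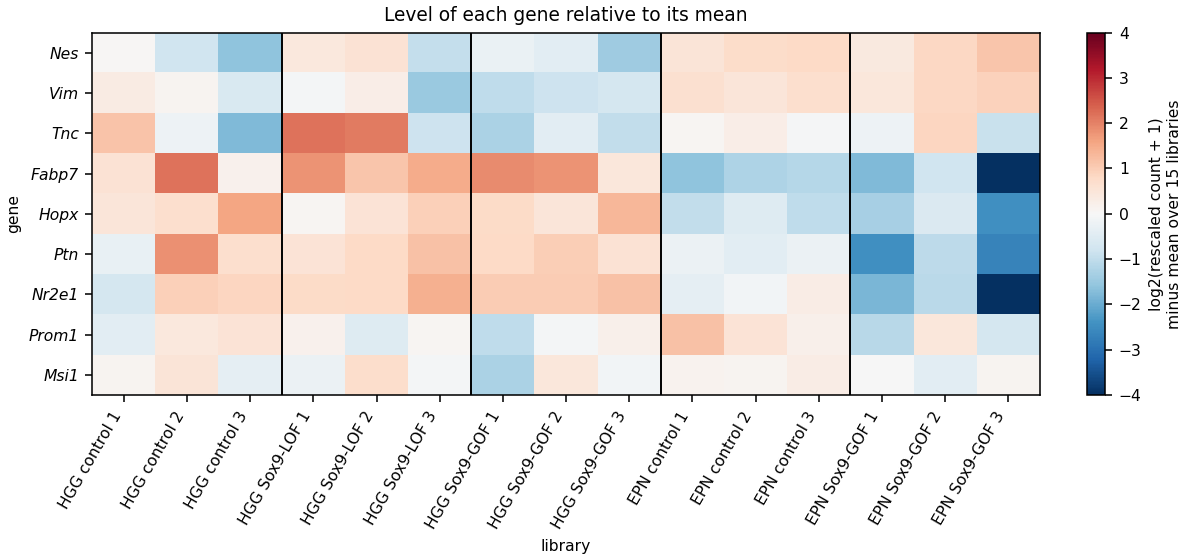
Level of the 9 genes in each of the 15 libraries as log2(rescaled count + 1), centred on its mean over the libraries, with colours that stop at 4 in either direction. Nes and Vim are above their mean in all EPN libraries, Fabp7, Hopx and Ptn are below theirs, and Nr2e1 is below its mean in all but EPN control 3; EPN Sox9-GOF 3 has the lowest value of these last 4 genes.

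Profiles over the 15 libraries were compared by the root mean square distance of centred log2 values, which share libraries, depth and model, so likeness is a description only. Among the members, Nes was closest to Vim (0.51) and Nr2e1 to Ptn (0.55), and Ptn next to Hopx (0.66), while Fabp7 stood 0.90 from Nr2e1. Of all genes with a mean of at least 100, those closest to Ptn were Nrxn2, Pcdhb9 and Rnf144b (0.35 to 0.39), and those closest to Nr2e1 were Wasf3, Rasl10b and Rfx4 (0.33 to 0.37). Nearest to Vim were Myl12a, Mpdu1 and Ltbr (0.26 to 0.29), and nearest to Nes were Rps27l, Mtap and Cd151 (0.36 to 0.38). Fabp7 had Cntn6, Nlgn3 and Dmrtb1 (0.54 to 0.69), and Hopx had Tspan13, Sgsm2 and Psd2 (0.37 to 0.39). Tnc had no close match, with Cdkn2b, Vav3 and Igfbp3 at 0.68 to 0.77 against its own SD of 1.15. Prom1 was nearest to Pafah2, Mettl7a1 and Wdr81 (0.33 to 0.35) and Msi1 to Phf2, Tesk2 and Trp53bp2 (0.29 to 0.30), the latter with the smallest SD of the 9, 0.47.

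Exons of 3 members overlap genes on the other strand, by 424 bases for Prom1, 412 for Hopx and 176 for Tnc. Whether counting used the strand is unknown from the labels, and the values of these 3 genes are uncertain to that extent.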

How the data were processed

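RNA of mouse tumour tissue was made into stranded mRNA libraries, per the labels' protocols. The submitters' processing notes name FastQC 0.11.7, MultiQC 1.11, STAR 2.5.0a, DESeq2 1.30.1 and the build mm10. The tool that counted reads and its use of strand were not given in the sources used here. The authors deposited 3 tables of a signal per gene, read counts divided by a size factor per library. Within 0.001 read, 100.0% of values were whole reads, and reads were recovered from them; the HGG controls in 2 tables hold the same reads and were used once. The 27 gene names turned into dates in the tables belong to no member.

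Tests used limma 3.58.1 in R 4.3.3 on log2(value + 1), leaving out genes whose mean was under 10, with p-values adjusted by Benjamini-Hochberg over all genes tested and a threshold of 0.05. Comparisons within a model used the deposited scale of 1 table, as did the difference of effects; EPN against HGG controls and HGG Sox9-GOF against Sox9-LOF used the 15 libraries rescaled together by the median of ratios. The 2 HGG comparisons with controls share their controls. All 9 members were named, with up to 3 genes of each list by smallest adjusted p in each comparison and the 3 genes most like each member. The members and lists were chosen with earlier results of these data known. Alternatives were edgeR 4.0.16, DESeq2 1.42.0, a spread shared by all libraries, TMM scaling, a pseudocount of 8, no filter, a replicate block, a GC content correction (GC known for 95.6% of genes) and leaving out each library. Deviations of same-numbered libraries correlated at 0.18, 0.44 and 0.22 between HGG control and HGG Sox9-GOF. Of the pairs with different numbers, HGG control 3 and HGG Sox9-GOF 1 correlated at 0.29. All others of these pairs were negative, at -0.49 to -0.030. Same-numbered values were -0.14, 0.073 and 0.20 for the label Sox9-LOF and -0.10, 0.020 and 0.30 for EPN Sox9-GOF. Whether the numbers pair the samples cannot be told from these values, and the labels name no shared animal. The main tests used no pairing. In HGG Sox9-GOF limma called 0.0% of genes both without and with the replicate block, so there was no call for the block to remove. Between the controls the share of genes called was 15.3% without the block and 7.56% with it. The fits were also run on simulated data with known changes and a spread estimated from these reads. That run is not used as support for any result here. The values of 1 gene of the lists are not reported here.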

Additional observations from a re-analysis of the deposited data

Results flagged for a closer look

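Nr2e1 was the member whose Sox9-GOF libraries lay to opposite sides of their controls in the 2 models. All 3 EPN Sox9-GOF libraries (3.84 to 41.0) were below the EPN controls (67.6 to 107), and all 3 HGG Sox9-GOF libraries (180 to 199) were above the HGG controls (53.2 to 172). Among all genes, 12.5% were lower without overlap in EPN Sox9-GOF and 15.3% higher without overlap in HGG Sox9-GOF. The share of genes with both was not counted, so how unusual the pattern is cannot be told. The difference of the effects was -2.99 (log2) with a limma adjusted p of 0.0868, which did not pass. Without EPN Sox9-GOF 3, which holds 4 reads of Nr2e1, the difference was -2.08 (limma adjusted p = 0.105). Without HGG control 1 it was -2.45 (limma adjusted p = 0.146), and the difference within HGG was 0.19 against 0.73 with that library. Over all alternatives the adjusted p ran from 0.0423 to 0.178.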

How the results depend on the processing

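Of 810 values of the members under the alternatives, 739 kept their direction and side of the threshold, 9 fell short of it, 9 passed it and 53 turned sign. These 53 belong to 22 results. The largest main value among them was 1.10 in size, Fabp7 in EPN Sox9-GOF, and next came Tnc in HGG Sox9-GOF at -0.58. Members called between the controls were 2, and 0 with the replicate block, which called 7.56% of all genes. With that block the limma adjusted p was 0.0529 for Fabp7 and 0.0590 for Hopx. The labels pair no samples across the models. Leaving out 1 library gave 0 to 4 members called between the controls and 0 to 1 in the difference of Sox9-GOF effects. DESeq2 called 1 member in EPN Sox9-GOF, 1 in HGG Sox9-GOF against Sox9-LOF and 2 in the difference of effects, where limma called 0. The cause of these changes was not tested. The value of Nr2e1 in EPN Sox9-GOF 3 rests on 4 reads.

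With edgeR and DESeq2, Tnc was 0.0040 and 0.045 in EPN Sox9-GOF and -0.084 and -0.080 between the controls, Fabp7 was 0.056 and 0.036 in HGG Sox9-GOF against Sox9-LOF, and Ptn was -0.17 and -0.18 in HGG Sox9-GOF and -0.16 and -0.14 in HGG Sox9-LOF. With the GC content correction, Fabp7 was -0.14, Msi1 0.13 and Ptn -0.36 in HGG Sox9-GOF, Ptn was -0.20 in HGG Sox9-LOF, and Msi1 was -0.20 and Nes -0.17 in the difference of effects, where TMM scaling gave -0.049 for Nes.

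Leaving out 1 library gave these ranges. In EPN Sox9-GOF they were -1.93 to 0.10 for Fabp7, -0.031 to 0.31 for Nes and -0.58 to 0.29 for Tnc. Between the controls they were -0.14 to 0.30 for Msi1 and -0.37 to 1.09 for Tnc. In HGG Sox9-GOF against Sox9-LOF they were -0.34 to 0.37 for Fabp7, -0.83 to 0.027 for Msi1, -0.044 to 0.30 for Nr2e1, -0.45 to 0.16 for Prom1 and -0.20 to 0.11 for Ptn. In HGG Sox9-GOF they were -0.26 to 0.30 for Hopx, -0.77 to 0.092 for Msi1, -0.31 to 0.52 for Nes, -0.43 to 0.64 for Ptn and -1.33 to 0.13 for Tnc. In HGG Sox9-LOF they were -0.26 to 0.26 for Msi1, -0.41 to 0.66 for Ptn and -0.76 to 0.15 for Vim. In the difference of effects they were -0.34 to 0.52 for Msi1, -0.39 to 0.44 for Nes and -0.25 to 1.21 for Tnc.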
